A study of Saccharomyces cerevisiae with 4 samples.

Results

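Strains of the yeast Saccharomyces cerevisiae that lived on Ssa2 or on Ssa1 as their only cytosolic Hsp70 of the Ssa family were compared feature by feature on 1 oligonucleotide array each. Of the 5794 features in the deposited table, 5782 had a value on both arrays, and each of these gave a ratio of the Ssa2 intensity to the Ssa1 intensity. A ratio above 2 or below 0.5 was counted as past 2-fold, which held for 217 features, 3.75% of those compared. Features carry no gene name in the table, so a name was given only where all 4 intensities of a feature matched an entry of the study's supplementary list of changed genes. That named 211 of the 217 features, and 75 of the 211 were bright, which here means 100 or more on the Ssa1 array and on the Ssa2 array. Features under 100 on either array are called dim.

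Hsp70 chaperones bind exposed hydrophobic stretches of other proteins in cycles of ATP binding and hydrolysis, and in yeast the cytosolic Ssa family helps new chains fold, carries precursors to organelles and restrains the heat shock transcription factor. Ssa1 and Ssa2 are close relatives that are made in unstressed cells, whereas Ssa3 and Ssa4 are mainly made under stress. Cells need at least 1 member of the family to grow.

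All 4 strains derived from G402, a MATa strain that carries ade2-1, SUQ5, kar1-1 and the his3, leu2, lys2, trp1 and ura3 markers. Its chromosomal copies of all SSA genes are deleted, with ssa1 replaced by KanMX, ssa2 by HIS3, ssa3 by TRP1 and ssa4 by URA3-1f. Each strain received a LEU2 plasmid with SSA1, SSA2, SSA3 or SSA4, and the earlier URA3 plasmid was then removed by counter-selection. The methods place the SSA genes under the SSA2 promoter, so the strains are plasmid-borne models of constitutive expression and do not have the native regulation of each gene. The cells were [psi-], grown at 30°C without stress, and RNA from several extractions of a strain was pooled before it was labelled. The number of pooled extractions and the growth phase differ between the labels and the methods. Pooling leaves 1 value per strain and feature, so no difference below has a standard deviation or a test, and the number of arrays limits the precision. From these arrays alone, differences between the strains and differences between the arrays cannot be told apart. The study also measured some genes by RT-qPCR, among them ADH2, ATG8, HSP31, HXT1, HXT7, ILV6, LYS20, MRPL6, MSS116, OYE3, VMA13, YNL108C, YNR014W and YOR387C, and those measurements were not used here.

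The arrays had medians between 200.4 and 201.5, and between 8 and 18 features without a value. SSA2 (YLL024C) checks the label of the Ssa2 array. Its intensity was 9.01, 2505, 1.21 and 2.38, with the arrays in the order Ssa1, Ssa2, Ssa3, Ssa4, as in every set of 4 values from here on. The arrays of the other 3 strains, which lack SSA2, gave signal without a target, so no fold is given. MFA1, which encodes the pheromone of MATa cells, had 3015, 4302, 4299 and 6119. MF(ALPHA)1, which encodes that of MATalpha cells, had 17.7, 6.7, 16.2 and 3.97. SAG1, another gene of MATalpha cells, went the other way and was bright, with 315, 128, 225 and 142. The source of its signal was not tested. LEU2, the marker on the plasmid, had 999, 1451, 3229 and 5006, a ratio of Ssa2 to Ssa1 of 1.45. Its level was lowest on the Ssa1 array and highest on the Ssa4 array, and the part of plasmid copy number in this was not tested.

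In the Ssa2 strain 78 features were above 2 times the Ssa1 intensity, 1.35% of those compared, and 139 were below 0.5 times, 2.4%. Of the 3750 bright features 38 were higher and 38 lower, 1.01% each way and 2.03% together. Of the 2032 dim features 1.97% were higher and 4.97% lower. The excess of lower over higher features in the deposited scaling lay among the dim features, and it was absent after quantile normalization, with 96 higher and 98 lower, and after subtraction of a lowess curve, with 96 and 94. The middle 95% of all ratios lay between 0.502 and 1.74, and between 0.594 and 1.70 for the bright features. A ratio of 2 was thus outside the bulk of the ratios between these arrays, but how far 2 arrays of the same strain would differ is unknown.

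The 38 higher and 37 lower bright genes with a name differed in where the other strains lay. For 34 of the 38 higher genes the Ssa1 array had the lowest of the 4 intensities, and in 26 the Ssa2 intensity was within 1.5-fold of the geometric mean of Ssa3 and Ssa4. For 26 of the 37 lower genes the Ssa2 array had the lowest of the 4 intensities, and in 11 the Ssa2 intensity was within 1.5-fold of that mean. The first pattern is favoured by the choice of genes that were low on the Ssa1 array, and the other by the choice of genes that were low on the Ssa2 array. The same shares over all bright features are not given here, so neither pattern is read as a result about these genes. Ratios of Ssa3 and Ssa4 to Ssa1 share the Ssa1 array with the ratio of Ssa2 to Ssa1, so the 4 intensities are given and no overlap between the comparisons is read.

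**Figure D1:**
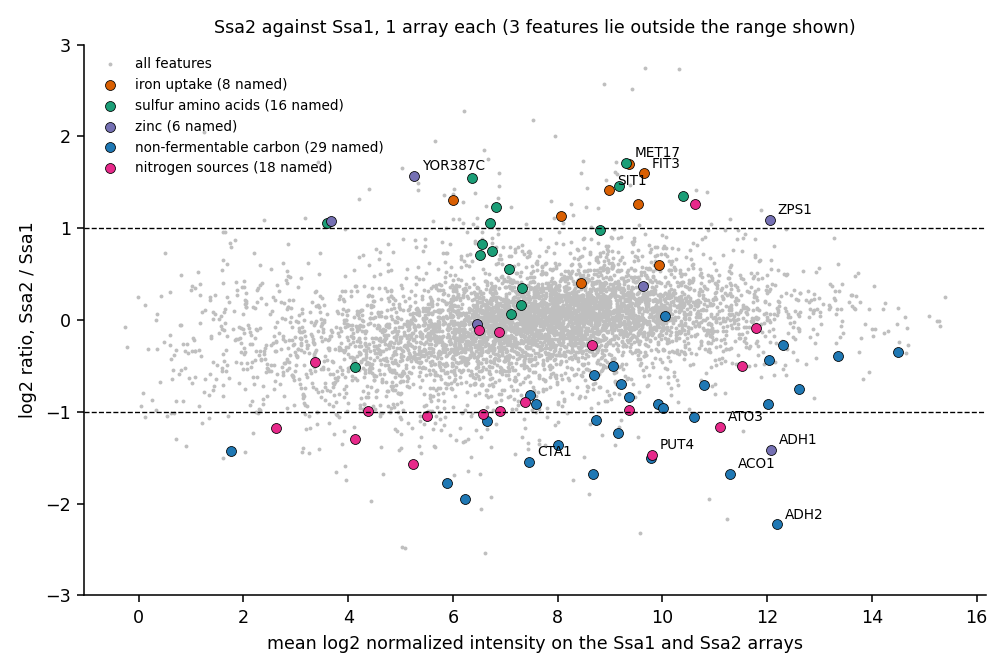
The log2 ratio of the Ssa2 to the Ssa1 intensity of each feature is plotted against the mean log2 intensity on both arrays, with 5 gene groups in colour and dashed lines at 2-fold. The iron and sulfur genes lie mostly above 0 and the genes for non-fermentable carbon and nitrogen sources mostly below it, and the scatter of all features is widest at low intensity.

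Gene groups were formed from 17 lists, which were chosen with earlier results of these data known. Their counts are therefore descriptive. A group could only include genes that have a name. A gene has a name if it is in the list of genes changed in at least 1 strain against the same Ssa1 array. Named genes therefore hold more differences than all features. The naming also favours a direction. A gene named for Ssa3 or Ssa4 values far from Ssa1 is favoured to have its ratio of Ssa2 to Ssa1 on the same side of 1. Group medians and counts above 1 are in part set by this. Of the 947 named features, 8.03% were above 2-fold and 14.3% below 0.5-fold in the Ssa2 strain. Their median ratio was 0.935, and 431 had a ratio above 1. Of the bright ones, 7.55% were above and 7.36% below. The counts of each group stand beside these values. Lists held 32 entries for iron, 35 for sulfur amino acids, 20 for zinc, 58 for non-fermentable carbon and 35 for nitrogen sources. Those for redox, hexose transport, copper, chaperones, glycolysis, branched-chain amino acids and mating held 37, 31, 22, 62, 35, 30 and 26. Many entries have no name. Of the 217 features past 2-fold only 6 had no name, so entries without a name were at most rarely past 2-fold.

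Most named genes of iron uptake and use were higher in the Ssa2 strain. Yeast that is short of iron makes siderophore transporters, cell wall proteins that hold siderophores and a ferroxidase that feeds a permease. Of 8 named genes of this group, whose list held 32, 6 were above 2-fold and 0 below 0.5-fold, with a median ratio of 2.44. FIT3 (YOR383C), a cell wall mannoprotein that retains siderophore-bound iron, had 459, 1389, 538 and 589.8. It was 3.02-fold higher in the Ssa2 strain than in the Ssa1 strain, and the Ssa2 array stood more than 2-fold above each of the other 3. TIS11 (YLR136C), which encodes an RNA-binding protein that speeds the decay of mRNAs for iron-using proteins, had 363, 1182, 804 and 395, a ratio of 3.26. Its Ssa4 value was close to its Ssa1 value and its Ssa3 value lay between. The siderophore transporter genes SIT1 and ARN1 differed from each other in the other strains. SIT1 (YEL065W) had 311, 828, 576 and 522, a ratio of 2.66, with Ssa2 the highest. ARN1 (YHL040C) had 477, 1143, 1165 and 1362, a ratio of 2.4, and was about equally high in all strains but Ssa1. The ferroxidase gene FET3 was dim, at 40.8, 101, 91.3 and 33.1, and its grid neighbours, explained below, were also high, with a median log2 ratio of 0.90. ISU2, a scaffold for iron-sulfur clusters, had 179.8, 394, 369 and 981, a ratio of 2.19 that was far exceeded in the Ssa4 strain. FTH1, which exports iron from the vacuole with Fet5, had a ratio of 1.51, and CTH1, a relative of TIS11, had a ratio of 1.32. Neither was past 2-fold.

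Genes of sulfur assimilation and of the uptake of sulfur amino acids were in part also higher. In this pathway sulfate is taken up and reduced to sulfide, which is built into homocysteine, methionine and cysteine. Of 16 named genes 7 were above 2-fold and 0 below 0.5-fold, with a median ratio of 1.87, and 15 had a ratio above 1. Except for CBF1, those not past 2-fold were named for Ssa3 or Ssa4 values more than 2-fold above Ssa1, which favours ratios above 1. MET17 (YLR303W), the enzyme that joins sulfide to O-acetylhomoserine, had 352, 1150.3, 759.9 and 342, a ratio of 3.27. Its Ssa2 intensity was the highest and its Ssa1 and Ssa4 intensities nearly equal. CYS3 (YAL012W), cystathionine gamma-lyase, which makes cysteine, had 345, 952, 621 and 1222, a ratio of 2.76. MUP1 (YGR055W), the high-affinity methionine permease, had 839.8, 2135, 1522 and 2795, a ratio of 2.54. Both CYS3 and MUP1 were lowest on the Ssa1 array and highest on the Ssa4 array.

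The transporter genes SUL2, OPT1 and MUP3 were below 100 on the Ssa1 array. SUL2, a sulfate permease, had 48.4, 142, 156 and 369, a ratio of 2.93. OPT1, which carries glutathione and small peptides, had 73.4, 173, 209 and 397, a ratio of 2.35. MUP3, a methionine permease of low affinity, had 72.4, 150.0, 149 and 410.0, a ratio of 2.07. In all of these the Ssa4 array was the highest, and Ssa2 and Ssa3 were similar. MET32, an activator of the pathway, was dimmer still, at 8.43, 17.5, 25.2 and 33.2. The other 9 named genes had ratios from 0.703 for CBF1, another regulator of the pathway, to 1.97 for GSH1, which makes the precursor of glutathione. The enzymes of sulfate reduction among them were less far apart, with ratios of 1.68 for MET3, 1.77 for MET16 and 1.12 for MET5.

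Of 6 named genes of zinc homeostasis 3 were above 2-fold and 1 below 0.5-fold, and the Ssa2 array stood apart from the other 3 arrays in each of these 4. Yeast short of zinc activates the transcription factor Zap1, which raises zinc transporters and cell surface proteins and lowers the abundant zinc enzyme Adh1. ZPS1 (YOL154W), a cell surface protein made under zinc limitation, had 2900.0, 6161, 1258 and 615. It was 2.12-fold higher in the Ssa2 strain than in the Ssa1 strain and lower than in the Ssa1 strain on the Ssa3 and Ssa4 arrays. YOR387C had 22.2, 65.6, 11.9 and 5.67, a ratio of 2.96, and YGL258W, a related gene also known as VEL1, had 8.78, 18.5, 9.0 and 3.3, a ratio of 2.1. Both were highest on the Ssa2 array and lowest on the Ssa4 array, at intensities below 100 on every array. ADH1 (YOL086C), the main fermentative alcohol dehydrogenase, had 7058, 2651, 7935 and 8514, a ratio of 0.376. It was low on the Ssa2 array alone, while the other 3 arrays lay close together. ADH1 and ADH2 are closely related in sequence, so that signal may be shared between their features. IZH1 and IZH2, membrane proteins that affect zinc balance, had ratios of 1.29 and 0.967. The zinc transporter genes were not named here and were not analysed.

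**Figure D2:**
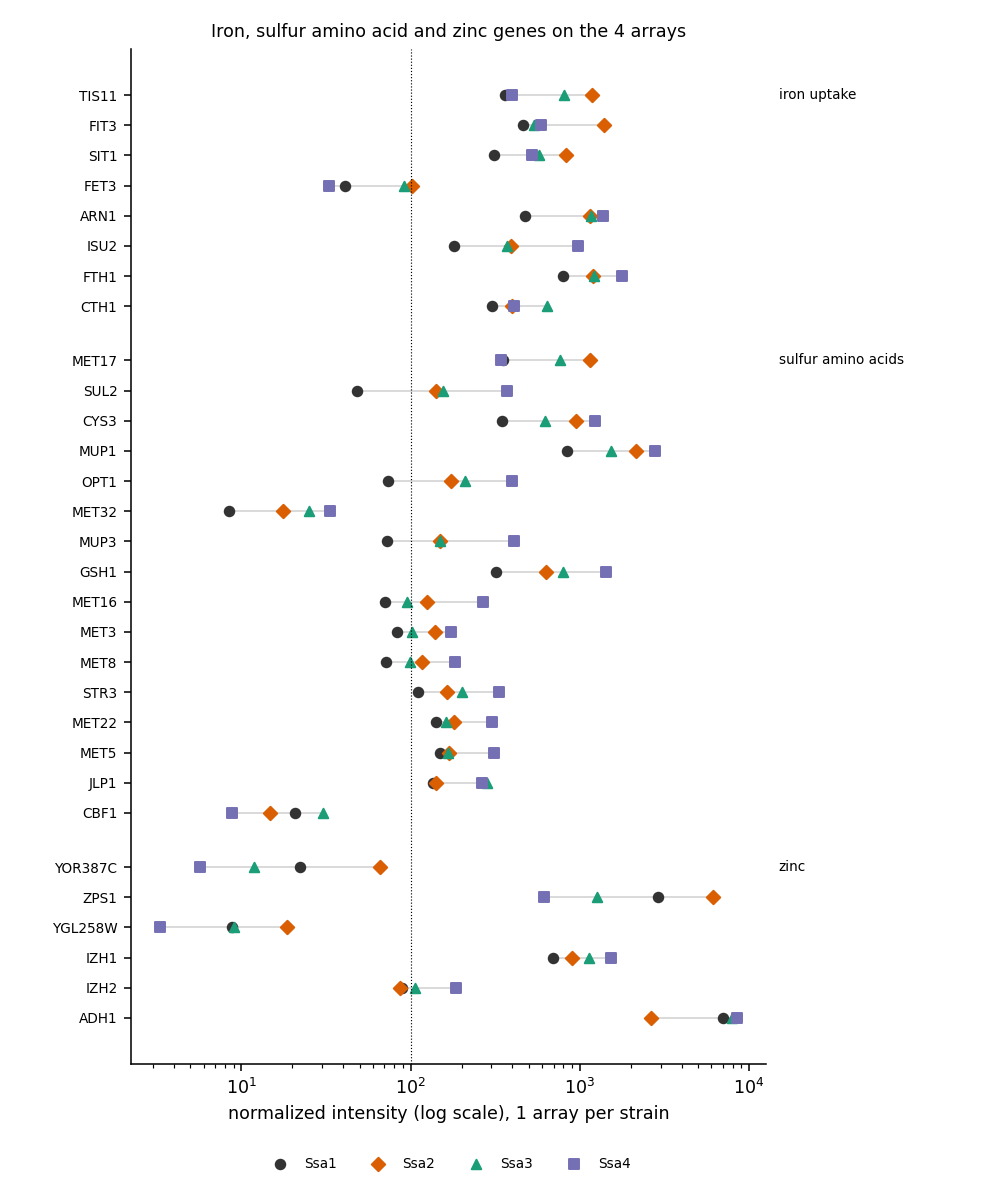
Normalized intensities of the named iron, sulfur amino acid and zinc genes on the 4 arrays are shown on a log axis, with a symbol for each strain and a dotted line at 100. In most iron and sulfur genes the Ssa1 array is the lowest, whereas FIT3, ZPS1, YOR387C and YGL258W have Ssa2 well above the other 3 arrays and ADH1 has it below them.

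Named nuclear genes for mitochondrial gene expression were mostly above 1 in the ratio, a direction that the naming favours. Mitochondria keep a small genome whose transcripts are spliced, stabilised and translated by imported proteins. Of 30 named genes 6 were above 2-fold and 0 below 0.5-fold, the median ratio was 1.69, and 28 had a ratio above 1. MRPL6 (YHR147C), a protein of the large mitochondrial ribosome subunit, had 38.0, 373, 506 and 455. Only the Ssa1 value was below 100, and the ratio was 9.81, the highest of any named gene other than SSA2. MSS116 (YDR194C), a DEAD-box RNA helicase for mitochondrial introns, had 288, 1641, 889 and 1389.5, a ratio of 5.7. MRPL32, of the same ribosome subunit as MRPL6, had 166, 359, 241 and 160.3, a ratio of 2.16, with the Ssa4 value like the Ssa1 value. The intron splicing factor gene MRS1 had 25.5, 98.5, 112 and 82.2, and CBP1, which stabilises the cytochrome b mRNA, had 5.88, 19.4, 23.2 and 15.9. Both of these dim genes had grid neighbours that were high as well, with median log2 ratios of 1.31 and 1.26. SCEI, the mitochondrial intron endonuclease, had 33.9, 71.5, 51.6 and 109.7. The 24 others did not pass 2-fold, and ranged from 0.631 for RSM23 to 1.9 for MRPL49, both proteins of the mitochondrial ribosome. Most of them were named for Ssa3 or Ssa4 values more than 2-fold above the same Ssa1 array. Examples are MRPS17, with a ratio of Ssa4 to Ssa1 of 2.75, and MRP1, with a ratio of Ssa3 to Ssa1 of 2.75. The median and the count above 1 were therefore favoured by the naming.

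Genes for cytochrome c and for copper delivery to cytochrome oxidase showed a similar shift. Of 12 named genes 4 were above 2-fold and 0 below 0.5-fold, with a median ratio of 1.70. CYC7 (YEL039C), the minor form of cytochrome c, had 200.1, 608, 568 and 1636, a ratio of 3.04. CYC3 (YAL039C), the lyase that attaches haem to cytochrome c, had 1349, 2777, 2781 and 4166, a ratio of 2.06. COX17 (YLL009C), a copper chaperone of the intermembrane space, had 976, 2606, 2783 and 3233, a ratio of 2.67, and its relative COX23 had 117, 242, 217 and 297, a ratio of 2.06. In all 4 genes the Ssa1 array was the lowest, the Ssa4 array the highest, and Ssa2 and Ssa3 close to each other. The copper transporter gene CTR1 had a ratio of 1.75, and HEM13, of haem synthesis, had the lowest ratio of the group, 0.796.

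Of 23 named genes of redox balance and detoxification 4 were above 2-fold and 3 below 0.5-fold, with a median ratio of 1.18. HSP31 (YDR533C), a chaperone and glyoxalase of the DJ-1 family, had 498, 3304, 2765 and 7010.1, a ratio of 6.64. OYE3 (YPL171C), an NADPH oxidoreductase of the old yellow enzyme family, had 197, 654, 654 and 2458, a ratio of 3.31. YNL134C, a reductase of aldehydes, had 1138, 2986, 2502 and 6738, a ratio of 2.62. These genes were lowest on the Ssa1 array and highest on the Ssa4 array. The features next to HSP31 on the grid were also higher in the Ssa2 strain, with a median log2 ratio of 0.44. Those next to OYE3 were lower, at -0.41. AAD4, an aryl-alcohol dehydrogenase with several near-identical copies in the genome, had 62.2, 125, 137 and 351, and its relative AAD10 had 857, 404, 802 and 958, ratios of 2.02 and 0.471 in opposite directions. Other enzymes of the group were closer to 1, such as the glutathione reductase GLR1 at 1.23, the peroxiredoxin AHP1 at 1.3 and the superoxide dismutase SOD1 at 0.926.

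The genes of both catalases, which break down hydrogen peroxide, were lower. CTA1 (YDR256C), the catalase of peroxisomes and mitochondria, had 302, 103, 237 and 93.1, a ratio of 0.341, and was also low on the Ssa4 array. CTT1, the cytosolic catalase, had 116, 46.2, 156 and 70.7, a ratio of 0.398. It was lowest on the Ssa2 array, below 100, and highest on the Ssa3 array.

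Of 16 named chaperones and heat shock proteins only HSP31 and SSA2 itself were above 2-fold, and the prefoldin subunit gene GIM5, described with its grid neighbours below, was the only member below 0.5-fold. The median ratio was 1.29. The mitochondrial chaperone genes MDJ1 and HSP10 had ratios of 1.68 and 1.61, and the cytosolic HSP82 a ratio of 0.998. SSB1 and SSB2, the Hsp70 chaperones of the ribosome, had ratios of 0.914 and 0.803. The nucleotide exchange factors of Hsp70 had 1.14 for SSE1 and 1.07 for SSE2.

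The highest ratio among bright genes was that of ATG8 (YBL078C), the ubiquitin-like protein that is joined to lipid on forming autophagosomes. It had 312, 2089, 1799.7 and 3194, a ratio of 6.69. Its RT-qPCR measurement was not used here. VMA13 (YPR036W), a subunit of the vacuolar proton pump, had 195, 1156, 1563 and 1158, a ratio of 5.93. GIC2 (YDR309C), an effector of the polarity GTPase Cdc42, had 124, 496, 438 and 147, a ratio of 4.01, and its Ssa4 value lay near its Ssa1 value. In these genes the Ssa1 array was low against at least 2 others, and the grid neighbours had median log2 ratios of 0.50, 0.70 and 0.58. For VMA13, as for CLN1 below, another supplementary table of the study lists other array ratios under the same gene name, so these names are less secure than the rest.

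Genes of ribosome assembly, ribosomal proteins and nuclear import formed the list with most named genes, and differed in both directions. Of 45 named genes 7 were above 2-fold and 4 below 0.5-fold, with a median ratio of 0.841. RPL27B (YDR471W), a protein of the large ribosome subunit, had 325, 980.0, 992 and 2123, a ratio of 3.01. Its near-identical copy RPL27A had 2203, 4218, 6120.4 and 6094, a ratio of 1.92, and the features of such copies may share signal. KAP123 (YER110C), which imports ribosomal proteins into the nucleus, had 197, 473, 351 and 314, a ratio of 2.4, and NMD5, another importin, had 67.8, 205, 179.6 and 196, a ratio of 3.02. YTM1 (YOR272W), which assembles the large subunit, had 149.9, 367, 227 and 249.8, and ARX1, which helps to export it, had 23.9, 67.6, 53.9 and 58.5. RKM3, a methyltransferase for ribosomal proteins, had 11.7, 29.1, 33.3 and 16.4, and XRN1 (YGL173C), the main cytoplasmic 5′ exonuclease, had 524, 1069, 922 and 1041. KAP123, NMD5, YTM1, ARX1, RKM3 and XRN1 had grid neighbours that were high too, with median log2 ratios from 0.62 for KAP123 to 1.62 for NMD5.

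Lower in the Ssa2 strain were CDC33 (YOL139C), the cap-binding factor eIF4E, with 411, 203, 392 and 413, and JIP5, a gene needed for the large subunit, with 239, 113, 158 and 95.6. Their ratios were 0.494 and 0.473. CDC33 was low on the Ssa2 array alone. RPL37A and RRN6 were lower as well, at ratios of 0.483 and 0.479 and intensities below 100 on every array. No bright ribosomal protein gene with a name was below 0.5-fold, and among them RPS12 had a ratio of 1.03, RPS7A of 0.971 and RPS21B of 0.702.

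Of 15 named genes of hexose transport and glucose sensing 5 were above 2-fold and 3 below 0.5-fold, all of them dim. The median ratio was 1.44. HXT1, the low-affinity glucose transporter, had 39.5, 106, 120.4 and 668, a ratio of 2.69. HXT4, a transporter of higher affinity, had 64.8, 153, 89.5 and 1391, a ratio of 2.36. HXT7, of high affinity, had 70.6, 194, 434 and 107, a ratio of 2.76, while HXT6, a near-identical copy, had a ratio of 1.84. HXT1 and HXT4 were highest by far on the Ssa4 array and HXT7 on the Ssa3 array. The features next to HXT1 and HXT7 had median log2 ratios of 0.65 and 0.92. MIG2, a repressor that acts in glucose, had 6.15, 13.3, 11.1 and 16.1, and HXT11 had 43.5, 93.5, 71.8 and 136. The galactose genes GAL1 and GAL7 were lower, with ratios of 0.474 and 0.392, and so was HXT14, at 0.369. The hexokinase genes HXK1 and HXK2 had ratios of 1.16 and 1.37.

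The remaining higher bright genes had varied roles. CHA1 (YCL064C), which breaks down serine and threonine, had 1014, 2433, 3164 and 2795, a ratio of 2.4. LDH1, a lipase of lipid droplets, had 287, 824, 773 and 1137, a ratio of 2.88, and TGL1, which cleaves steryl esters, had 211, 468, 442 and 476, a ratio of 2.21. HPF1, a cell wall mannoprotein, had 228, 616, 623 and 710.5, a ratio of 2.7. In these 4 genes the Ssa1 array was the lowest and the other 3 lay within 1.5-fold of each other. PMU1 (YKL128C), a relative of phosphomutases, had 190.1, 395, 85.6 and 157, a ratio of 2.08, with the Ssa3 array the lowest. YPR011C, a mitochondrial carrier, had a ratio of 2.32. YKL068W-A, YJL133C-A (also known as DPI8) and YNR040W (also known as MRX15) had ratios of 2.76, 2.29 and 2.02. The Ty retrotransposon features YFL002W and YDR261C-D, which stand for families of near-identical elements, had ratios of 2.35 and 2.15. The other 12 named Ty features ranged from 0.299 to 1.59. NAT2 and PAU16 (3.07 and 3.3) are taken up with their grid neighbours.

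Many genes for growth on non-fermentable carbon were lower in the Ssa2 strain. Without glucose, yeast oxidises ethanol, acetate and fatty acids through the glyoxylate and citric acid cycles, and glucose represses most of these genes. Of 29 named genes 0 were above 2-fold and 13 below 0.5-fold, with a median ratio of 0.528, and only LSC1, of succinyl-CoA ligase, had a ratio above 1. Those not past 2-fold were named for Ssa3 or Ssa4 values below 0.5 times the same Ssa1 array. Examples are ICL1 and SFC1, with ratios of Ssa4 to Ssa1 of 0.229 and 0.198. The median and the near absence of ratios above 1 were therefore favoured by the naming. ADH2 (YMR303C), the alcohol dehydrogenase that oxidises ethanol, had 10062, 2148, 3867 and 384. Its Ssa2 intensity was 4.68-fold below its Ssa1 intensity, and it was lower still on the Ssa4 array. ACO1 (YLR304C), aconitase, had 4466, 1396, 4425 and 2193, a ratio of 0.313, with Ssa3 close to Ssa1. On the grid ACO1 adjoins a run of low features, described below. CIT3 (YPR001W), a mitochondrial synthase of citrate and methylcitrate, had 874, 372, 707 and 132, a ratio of 0.425. MLS1 (YNL117W), malate synthase of the glyoxylate cycle, had 616, 289.6, 373 and 79.9, a ratio of 0.47. The Ssa4 array was much lower than Ssa2 in CIT3 and MLS1, but not in ACO1.

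Several genes for succinate dehydrogenase relatives were low on the Ssa2 array. YJL045W, a minor form of its flavoprotein, had 1485, 522, 1479 and 615, a ratio of 0.352. SHH4 had 2238, 1078, 2259 and 1260.0, a ratio of 0.482, and SHH3 had 146, 38.0, 149 and 79.6, a ratio of 0.26, both relatives of membrane subunits. The main flavoprotein gene SDH1 had 512, 338, 417 and 226, a ratio of 0.661 that did not pass 2-fold. Ssa3 was close to Ssa1 in YJL045W, SHH4 and SHH3, and Ssa4 lay below Ssa1. ETR1 (YBR026C), of mitochondrial fatty acid synthesis, had 412, 161, 399.5 and 201, a ratio of 0.39. ICS2 (YBR157C) had 731, 228, 551 and 127, a ratio of 0.311, and is counted in this group although its function is unknown. Dim members below 0.5-fold were FDH1, formate dehydrogenase, at 0.293, DCI1, of peroxisomal fatty acid breakdown, at 0.372, and STL1, a glycerol importer, at 0.465. Some bright members did not pass 2-fold. ICL1, isocitrate lyase of the glyoxylate cycle, had 26197, 20566, 16310.4 and 5998, a ratio of 0.785, and FBP1, of gluconeogenesis, had 5570.3, 4596, 4611 and 2537, a ratio of 0.825. The ethanol-induced acetate transporter gene ADY2, at 5699.7, 3027, 2299 and 703, fell just short with a ratio of 0.531.

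Some genes for the use of poor nitrogen sources were lower too. When ammonium and glutamine run short, yeast makes permeases and enzymes for proline, allantoin and urea. Of 18 named genes 7 were below 0.5-fold and 1, CHA1, above 2-fold, with a median ratio of 0.505. PUT4 (YOR348C), the proline permease, had 1483, 534, 746 and 180.3, a ratio of 0.36. ATO3 (YDR384C), which is thought to export ammonium, had 3291, 1469, 1464 and 383, a ratio of 0.446. In both genes Ssa1 was the highest, Ssa4 the lowest and Ssa2 and Ssa3 lay between. Of the other 5, all dim, DAL7, an enzyme of allantoin breakdown, had 64.8, 21.8, 23.2 and 26.8, a ratio of 0.337. DUR3, the urea permease, had 65.0, 31.6, 57.2 and 21.2, a ratio of 0.485. The arginine transporter gene ALP1 and the asparaginase genes ASP3-1 and ASP3-3, which are near-identical copies, had ratios of 0.407, 0.491 and 0.444. GAP1, the general amino acid permease, had 169, 84.9, 162 and 108 and just missed 2-fold at 0.504, as did DAL2, of allantoin breakdown, at 0.506. GDH2, the glutamate dehydrogenase that releases ammonium, had a ratio of 0.942.

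**Figure D3:**
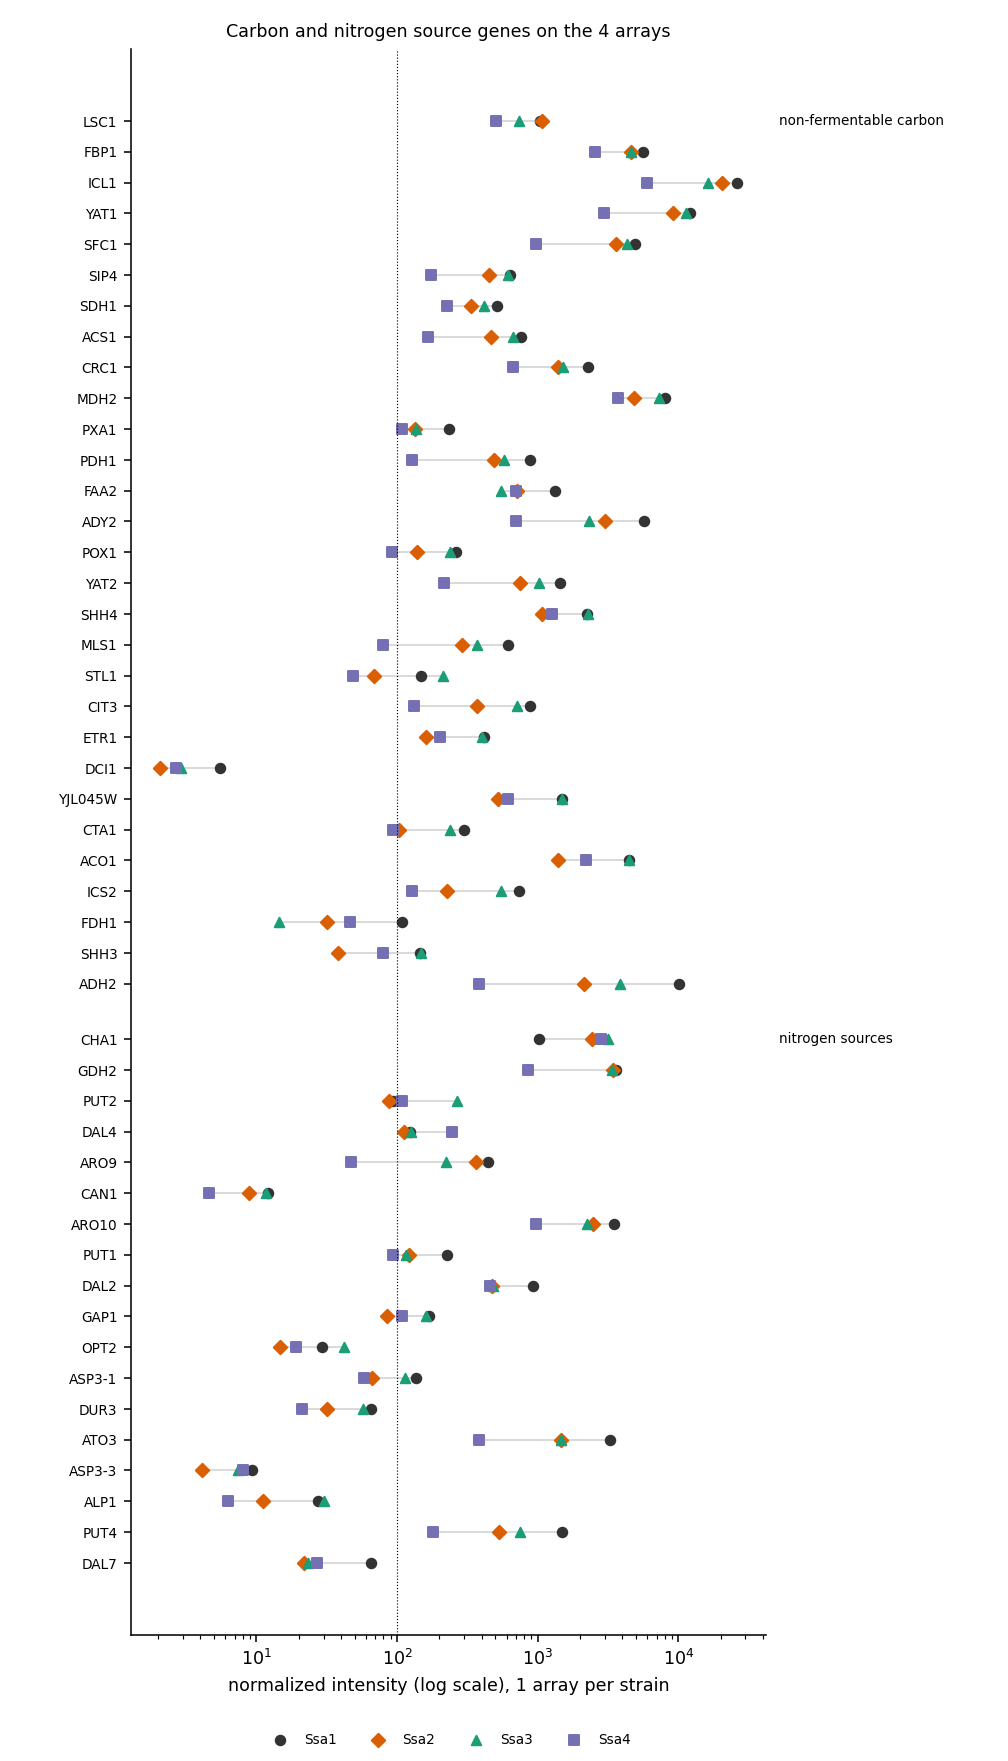
Normalized intensities of the named genes for non-fermentable carbon and for nitrogen sources on the 4 arrays are shown on a log axis, with a symbol for each strain and a dotted line at 100. In most genes Ssa2 lies to the left of Ssa1, and in many the Ssa4 array is lower than Ssa2, while CHA1 has Ssa1 as the lowest.

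Of 6 named genes of glycolysis, fermentation and glycogen only ADH1 and GPH1 were past 2-fold, both lower. GPH1 (YPR160W), glycogen phosphorylase, had 4528, 1957, 5124 and 6325, a ratio of 0.432, and was low on the Ssa2 array alone. The trehalose synthase gene TPS1 had a ratio of 1.22, and GPM1, of glycolysis, had 1706, 916, 4959 and 772, a ratio of 0.537.

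Of 11 named genes for branched-chain amino acids, lysine and arginine 3 were below 0.5-fold and 0 above 2-fold, with a median ratio of 0.615. ILV6 (YCL009C), the regulatory subunit of acetolactate synthase, had 5095, 1135, 5629 and 5074, a ratio of 0.223. LYS20 (YDL182W), homocitrate synthase of lysine synthesis, had 3752, 971, 6169.7 and 9247, a ratio of 0.259. Both were low on the Ssa2 array alone, and the grid neighbours of both were low as well, with median log2 ratios of -2.15 and -0.86. Both genes are among those with RT-qPCR measurements not used here. With that median subtracted the ratio of ILV6 was 0.986, no longer past 2-fold, and that of LYS20 was 0.468. The neighbours of LYS20 were mixed, so the subtraction may correct it too little. YOR302W, a short reading frame before CPA1 that damps its translation in arginine, had 274, 108, 264 and 58.9, a ratio of 0.395. BAT2, the cytosolic branched-chain transaminase, had 1519.9, 864, 1046 and 484, a ratio of 0.568, not past 2-fold.

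The seripauperins are cell wall proteins of a large family with near-identical members, whose features may share signal. Of 8 named members 3 were below 0.5-fold and 1 above 2-fold, with a median ratio of 0.534. PAU2 (YEL049W) had 878, 341, 491 and 478, PAU19 had 318, 125, 195 and 262 and PAU23 had 249, 110.2, 212 and 146, with ratios of 0.388, 0.392 and 0.442. PAU16 went the other way, with 306, 1012, 986 and 1402 and a ratio of 3.3. Its grid neighbours were high by nearly as much, and with their median subtracted the ratio of PAU16 was 1.11.

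The remaining lower bright genes included PMA2 (YPL036W), a minor form of the plasma membrane proton pump, with 573, 172, 723 and 151 and a ratio of 0.30. HVG1 (YER039C), a relative of nucleotide sugar transporters, had 745, 200.3, 258 and 225, a ratio of 0.269, and was high on the Ssa1 array alone. RTN2 (YDL204W), a reticulon of the endoplasmic reticulum, had 713, 298, 1249 and 662, a ratio of 0.418, and was lowest on the Ssa2 array. PAD1, a decarboxylase of aromatic acids, had a ratio of 0.482. The uncharacterized YLR125W, YMR085W and YOL153C had ratios of 0.377, 0.452 and 0.463.

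Of 9 named genes of mating 6 were below 0.5-fold and 0 above 2-fold, with a median ratio of 0.486. SAG1 (YJR004C), the agglutinin of MATalpha cells, had 315, 128, 225 and 142, a ratio of 0.405. The fusion genes KAR5, FUS2 and PRM1 had ratios of 0.382, 0.456 and 0.486 at intensities below 100. Among 44 named genes whose description in the list mentions sporulation, spores or meiosis 13 were below 0.5-fold and 0 above 2-fold, with a median ratio of 0.571. SPR3 (YGR059W), a septin of sporulating cells, had 272, 136, 243 and 259, a ratio of 0.4999. The other 12 were ICS2, described above, and 11 dim genes, among them IME2, a kinase that starts meiosis, with 35.1, 17.0, 28.7 and 26.1. SAG1 and MF(ALPHA)1 are not transcribed in MATa cells as a rule, and the meiosis genes not in haploid cells. The source of this signal, bright in SAG1 and SPR3 and dim in most of the others, was not tested.

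Dim genes made up 38 of the 76 named higher genes and 98 of the 135 named lower genes. Besides MRPL6 and SSA2, the highest ratios among them were 4.83 for REV1, a DNA polymerase for damaged templates, 4.53 for YDL085C-A, 4.14 for BET5, of vesicle transport, and 3.85 for MRS1. REV1 had 33.8, 163, 152 and 175 and BET5 1.17, 4.84, 5.09 and 4.51. Grid neighbours of REV1, YDL085C-A and BET5 were also high, with median log2 ratios of 0.31, 0.83 and 1.34. With its neighbour median subtracted the ratio of BET5 was 1.64. The lowest were 0.172 for YER039C-A, 0.179 for POP3, of ribonuclease P, 0.18 for YNL108C, 0.24 for YIL029C and 0.254 for YML083C. YER039C-A had 236, 40.6, 103 and 35.6 and was low on the Ssa4 array as well. CLN1, a cyclin of G1, had 12.8, 34.6, 41.7 and 18.1, a ratio of 2.7, with grid neighbours at 1.54.

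The Ssa2 array stood above each of the other 3 arrays by more than 2-fold in 6 features, 0.104% of the 5771 with a value on all 4 arrays, and below each by more than 2-fold in 21, 0.364%. The 6 were SSA2, FIT3, ZPS1, YOR387C, YGL258W and PMU1. Of these, 3 are the zinc genes named above. Grid neighbours of the 6 had median log2 ratios between -0.23 for FIT3 and 0.11 for ZPS1, none beyond 0.3. The 21 fell into 12 that lie close together on the array and 9 that do not. The 9 were ADH1, GPH1, RTN2, SHH3, GIP1, YAL063C, YLR154C-G, YNL054W-A and GRE1. GIP1, a sporulation partner of a protein phosphatase, had 163, 50.8, 103 and 107. YAL063C, also known as the flocculin gene FLO9, had 242, 87.9, 179 and 196, and GRE1, a small protein made under osmotic stress, had 13.7, 6.63, 30.6 and 16.8. ADH1 and GPH1, both of central carbon metabolism, were the brightest of the 9.

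The grid of spots is implied by the feature names and is not stated in the deposited data. On it, features are printed in 32 blocks, and the neighbours of a feature were taken as those 1, 14 and 15 positions away in its block. Of the 139 features below 0.5-fold, 22 were in 1 block of 180 features, while the other 31 blocks held between 0 and 7. The 12 genes of that block that were low against all 3 other arrays were ILV6, LYS20, YOL159C, UBP2, GIM5, GNA1, IQG1, YBL039W-A, DEP1, POP3, YNL108C and YML083C. UBP2 (YOR124C), a deubiquitinating enzyme, had 1148, 473, 1190.4 and 1627, and its neighbours a median log2 ratio of -1.36. YOL159C, a secreted protein, had 1699, 341, 1469 and 2375, the lowest ratio of the bright genes at 0.20, and neighbours at -0.79. The neighbours of the 12 had medians between -2.15 and -0.69, against -0.31 to 0.15 for the other 9 genes.

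Around the 12 genes the local level of the Ssa2 array relative to the mean of Ssa3 and Ssa4 was between -2.30 and -0.76 on the log2 scale, and that of the Ssa1 array between -0.21 and 0.06. The Ssa2 array was thus low around the 12 genes, and the part of this in their ratios was not tested beyond the subtraction. After subtraction GIM5 and UBP2 had ratios of 1.12 and 1.06, above 1, and GNA1, IQG1 and YBL039W-A had 0.993, 0.643 and 0.716. YOL159C stayed past 2-fold at 0.347. Its neighbours ranged from -2.47 for YNL108C to 0.15, so their median may remove only part of the local low. The neighbours of LYS20 were mixed in the same way. ACO1 and YJL045W are in the same block, with neighbour medians of -0.17 and 0.17. ACO1 adjoins LYS20 on the grid, at the end of an unbroken run of low features that begins with MCM2 and DUN1, so its median hides low features on one side.

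**Figure D4:**
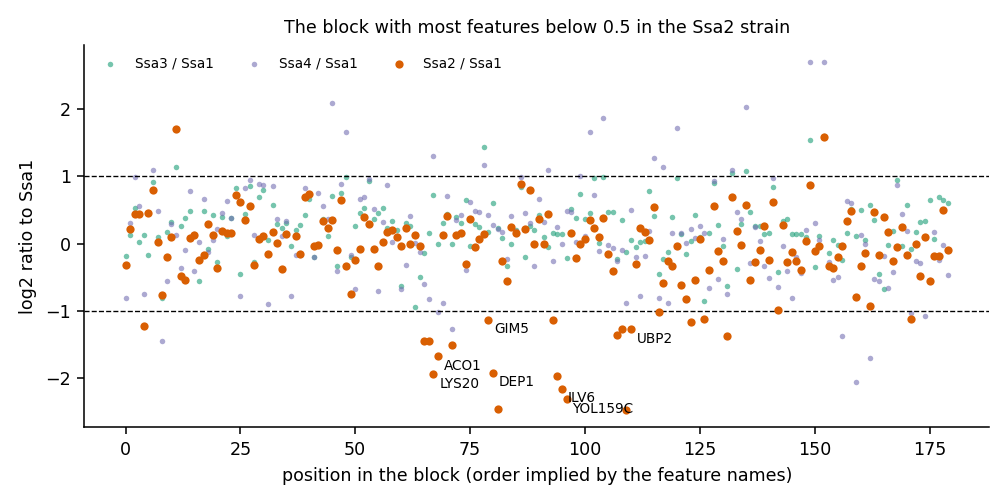
Log2 ratios to Ssa1 are plotted along the block with most features below 0.5-fold in the Ssa2 strain, in the order implied by the feature names, with large points for Ssa2 and small points for Ssa3 and Ssa4 and dashed lines at 2-fold. The Ssa2 ratios drop in several short runs in the middle of the block, where those of Ssa3 and Ssa4 mostly do not, and lie nearer 0 between the runs.

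Neighbours of higher genes often had high ratios too. A neighbour median log2 ratio above 0.3 was found around 4.01% of all features and around 42.7% of the features above 2-fold that have neighbours. Among the 38 higher bright genes it was found for 12, 31.6%. They were ATG8, HSP31, VMA13, GIC2, PAU16, NAT2, CYC7, YTM1, KAP123, YDR261C-D, XRN1 and YNR040W, with medians between 0.34 for CYC7 and 1.58 for PAU16. Around these 12 the local log2 level of Ssa1 relative to the mean of Ssa3 and Ssa4 lay between -1.40 for PAU16 and -0.27 for HSP31. That of Ssa2 lay between -0.23 for CYC7 and 0.38 for YTM1. The Ssa1 array was thus low around all 12, and the part of this in their ratios was not tested beyond the subtraction. NAT2 (YGR147C) had 311, 955, 811 and 858, a ratio of 3.07, and 1.63 after subtraction. A neighbour median below -0.3 was found around 8.82% of all features, 20% of those below 0.5-fold that have neighbours, and 8 of the 37 lower bright features that have neighbours, 21.6%.

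Subtracting the neighbour median left 30 of the 38 higher and 28 of the 37 lower genes past 2-fold, and CTA1 had no neighbour value. The iron and sulfur genes FIT3, TIS11, SIT1, ARN1, MET17, CYS3 and MUP1 were among those still higher, with subtracted ratios of 3.56, 2.8, 2.81, 2.57, 3.69, 3.34 and 2.74. ADH2, PUT4, ATO3, ADH1 and GPH1 were among those still lower, with 0.233, 0.392, 0.416, 0.407 and 0.483. ACO1 was also counted as lower, at 0.352, but its neighbour median hides low features on one side. ZPS1 fell just short, at 1.96. The 3 other scalings and an offset of 50 were then counted as well. Under every such alternative 24 of the 38 and 22 of the 37 genes stayed past 2-fold, with CTA1 counted on the others alone. The 22 include ACO1, LYS20 and YOL159C, whose neighbour medians may take out too little of the local low.

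**Figure D5:**
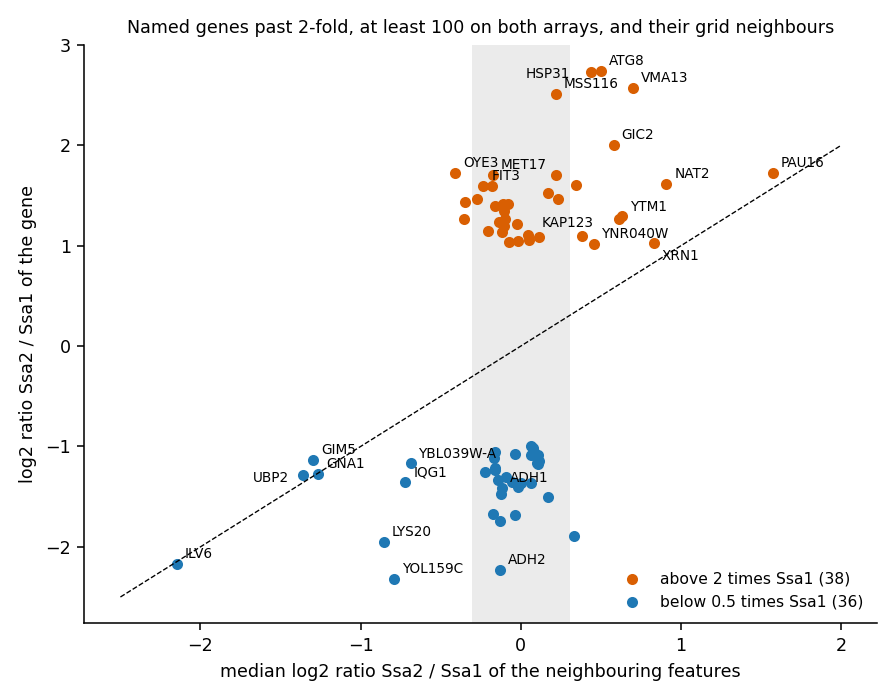
The log2 ratio of Ssa2 to Ssa1 of each bright gene past 2-fold is plotted against the median log2 ratio of its grid neighbours, with medians within 0.3 of 0 shaded and a dashed line where both are equal. Most genes lie in the shaded band, while PAU16, XRN1 and NAT2 on one side and ILV6, UBP2, GNA1 and GIM5 on the other lie near the line or toward it.

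The 2-fold threshold separated genes with nearly equal values. Just above it among bright genes were YNR040W at 2.02 and XRN1 at 2.04, and just short of it were CMC1, a copper protein of the cytochrome oxidase pathway, at 1.99 and ICY2 at 1.98. On the lower side SPR3 at 0.4999 and CDC33 at 0.494 were just inside, and DAL2 at 0.506 and PAU8 at 0.511 just outside.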

How the data were processed

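Each strain was measured on 1 array of a spotted oligonucleotide chip for yeast, hybridized with Cy5-labelled amplified RNA pooled from several extractions. Spot intensities were read by the authors in GenePix Pro as foreground medians. Spots had to exceed an upper confidence limit set by blank spots, the mean background was removed, and arrays were brought to a common median. These normalized intensities were deposited on a linear scale, so a dim feature depends most on the background that was subtracted. A genome build is not given in the sources used here, and no coordinates or sequences were used.

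Ratios of the Ssa2 to the Ssa1 intensity were formed from the deposited values with no offset. The study's threshold of 2-fold was used, without a test. Names came from 956 entries of the study's supplementary list of changed genes, each of which matched 1 feature in all 4 intensities to a relative tolerance of 1e-05, and 0 matched after the 4 columns were shifted. They name 947 features, 16.3% of all, of which 936 are in the RefSeq gene table (assembly R64, used for names only). The SSA genes other than SSA2 were not analysed here. Genes named are those past 2-fold that are bright (100 or more on both arrays), dim genes of the 17 lists, the 5 highest and 5 lowest ratios among dim genes, genes past 2-fold from all 3 other arrays, genes next to the threshold, and list members for comparison. The members and the lists were chosen with earlier results of these data known. The neighbours of a feature are those 1, 14 and 15 positions away in its block on the implied grid, of which at least 3 of 6 needed a value. The distances were picked in these data, and 5752 features have a place on the grid.

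Alternatives were a lowess curve (fraction 0.4), quantile normalization, equal medians over features with 4 values, thresholds of 3-fold and 1.5-fold, an offset of 50, missing values set to the lowest of the array, subtraction of the neighbour median, the median of the other 3 arrays as reference, and limits of 200 on both arrays or 100 on at least 1. The counting was tested on simulated data. The software was Python 3.11.15 with matplotlib 3.10.9, statsmodels 0.14.6, scipy 1.17.1, pandas 2.3.3 and numpy 2.4.6. The planned comparison of protein and promoter sequences was not analysed here.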

Additional observations from a re-analysis of the deposited data

Results flagged for a closer look

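In 7 features with a name, other than SSA2, Ssa2 was past 2-fold from Ssa1 and Ssa3 or Ssa4 was past 2-fold the other way. With 1 array per strain this difference was not tested, and all 3 ratios share the Ssa1 array. The ratios of Ssa2 to Ssa1 were 2.12 for ZPS1, 2.96 for YOR387C, 2.1 for YGL258W and 2.08 for PMU1. Against these, the ratios of Ssa3 to Ssa1 were 0.434, 0.536, 1.02 and 0.4504, and those of Ssa4 to Ssa1 were 0.212, 0.256, 0.376 and 0.823, in the same order. ZPS1, YOR387C and YGL258W are zinc-responsive genes.

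The other 3 features were lower in the Ssa2 strain. LYS20 had a ratio of 0.259 for Ssa2 against 1.64 for Ssa3 and 2.46 for Ssa4. It lies in the block with most features below 0.5-fold on the Ssa2 array. GRE1 had 0.484, 2.23 and 1.23, at intensities of 30.6 or less. YCL042W, a dim feature, had 0.437, 2.25 and 0.228, so that its Ssa3 value stood apart from the other 2.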

How the results depend on the processing

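The counts of higher and lower features were 78 and 139 as reported. The counts of 38 and 38 for at least 100 on both arrays, and of 6 and 21 for features apart from all 3 other arrays, were recomputed with them. With a 3-fold threshold these became 24 and 24, 13 and 8, and 1 and 7, and with a 1.5-fold threshold 303 and 533, 197 and 175, and 34 and 98. An offset of 50 gave 39 higher and 37 lower features, and 3 and 10 apart from the other arrays. Subtraction of the neighbour median left 9 lower features apart from the other arrays. With the median of the other 3 arrays as reference 41 features were higher, 16 of them with at least 100 on both arrays. A limit of 200 on both arrays left 23 lower features, and a limit of 100 on at least 1 array gave 62 higher and 64 lower. Quantile normalization gave 96 higher and 98 lower features and the lowess curve 96 and 94, so the excess of lower features held for the deposited scaling and for equal medians, where it was 81 and 135, but not for these. The thresholds and limits change the counts by their construction, and for the rest the cause was not tested.

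Of 706 ratios of 101 named genes under 7 alternatives, 576 stayed past 2-fold, 114 fell short with the same direction and 16 changed direction. Subtraction of the neighbour median turned GIM5 to 1.12 and UBP2 to 1.06. Against the median of the other 3 arrays the higher genes COX17 (0.936), CHA1 (0.871), OYE3 (0.9998), ARN1 (0.981), VMA13 (0.9985), CYC3 (0.9986), RPL27B (0.988), HPF1 (0.990), SUL2 (0.909), OPT1 (0.827), MRPL6 (0.819), HXT1 (0.883) and MET32 (0.696) came out just below 1 or lower, and the lower gene ATO3 at 1.003. This reference leaves the Ssa1 array with less weight by construction.

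No paired analysis was possible because each strain has 1 array, and no replicate exists to leave out. With 1 array per strain and intensities below 100 for between 32.2% and 34.1% of the features, small ratios and dim genes have the least support here.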

Other observations

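Of the 217 features past 2-fold, 6 had no name in the entries used here. The farthest apart, SCS0430804, read 2145 for Ssa1 and 1.88 for Ssa2, and had no value for Ssa3 and Ssa4. Only the Ssa1 strain carries SSA1, and whether this feature is SSA1 was not tested. The only unnamed one that was bright, SCS0090606, had 609, 216, 332 and 383, a ratio of 0.354.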
